A study of Mus musculus with 16 samples.

Results

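The cytochrome P450 genes were taken as the protein-coding genes of the GENCODE vM21 annotation of the mouse genome (build GRCm38) whose name is Cyp followed by a digit, and 100 of 21938 protein-coding genes met this rule. The study mapped accessible chromatin with ATAC-Seq, an assay that uses Tn5 transposase to tag DNA free of nucleosomes. Liver, kidney, lung, brown adipose tissue (BAT), white adipose tissue (WAT), muscle, heart and spleen of adult male C57BL/6 mice were sampled either in the fed state or after fasting. Tissue from the mice of a feeding state was pooled in equal parts before the nuclei were isolated, so each tissue gave 1 fed and 1 fasting library (16 in all), and all tissues of a state came from the same mice. No strain, sex or genotype differed between the groups.

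Each library was read from its deposited peak list, which held between 298996 and 299529 rows. The promoter rank of a gene was the percentile, within its own list, of the −log10 p-value of the strongest peak whose summit lay within 3000 bp of any annotated start of that gene, on a scale from 0 to 100. A rank of 0 means that no peak of the list reached the gene, which is a statement about a list of limited length and not about an absent signal. A promoter was called open in a library when such a peak had a q-value under 0.01, and open in a tissue when it was open in both libraries of that tissue. Depth differed, since the local background at weak peaks was 2.80 tags in the fed liver library and 12.77 tags in the fed BAT library. The 5 genes listed as markers of each tissue were called higher in it for 5 of 5 in liver, muscle and spleen, 4 of 5 in BAT and WAT, 3 of 5 in kidney and lung and 2 of 5 in heart, and all 5 WAT markers were also called higher in BAT. Of the 5 lung markers 3 were also called higher in liver, 2 in kidney and 1 in heart. Of the 5 heart markers 2 were also called higher in spleen and 1 in kidney. These are bulk tissues, so fewer cells of a type and less accessible chromatin per cell cannot be told apart.

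Cytochrome P450 enzymes are heme proteins that insert an oxygen atom into their substrates, and most sit in the endoplasmic reticulum, where Por supplies their electrons. Enzymes of the Cyp1, Cyp2 and Cyp3 families oxidise drugs, toxins and steroids, Cyp4 and Cyp2j enzymes oxidise fatty acids and arachidonic acid, and single genes carry steps of bile acid, steroid hormone, vitamin D and retinoic acid metabolism. Liver is the main site of drug and bile acid metabolism, and many rodent P450 subfamilies have expanded into clusters of neighbouring, similar genes.

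Sequences at or beside the summits of P450 peaks in liver are shown first, because they are the DNA that the ranks below refer to. Each runs 5′ to 3′ on the strand of the gene and comes from the 100 bases on either side of the summit of the strongest peak in the library named, cut to a stretch outside annotated UTRs. For Cyp2c54, whose summit lay 32 bp inside the gene, the stretch printed is upstream of the start and does not hold the summit. The motif letters did not overlap one another in these windows. Capitals mark exact matches, on either strand, to the motif letters searched around every promoter summit. Those letters were CAAAGTCCA for HNF4, GTTAATNAT for HNF1, TTGCNNAA for C/EBP, TGTTTAC for FOXA, TNGCGTG for the xenobiotic response element, TCACNCCAC for the sterol response element, CAAGGTCA for SF1/LRH1 and TTATGTAA for the D-box. A match is a description of the letters and not a bound site, and a window without one says only that these letters are not in it.

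Cyp1a1, which oxidises polycyclic aromatic compounds and is the classic target of the aryl hydrocarbon receptor, and Cyp7a1, the rate-limiting enzyme of bile acid synthesis, are shown for the fed liver library. The Cyp1a1 window (chr9:57696581-57696781, + strand) was centred at −932 bp from the nearest start (negative is upstream) and held 2 matches to the xenobiotic response element. The Cyp7a1 window (chr4:6275783-6275983, − strand) was centred at −250 bp, between genes, and held 1 FOXA match.
Cyp1a1: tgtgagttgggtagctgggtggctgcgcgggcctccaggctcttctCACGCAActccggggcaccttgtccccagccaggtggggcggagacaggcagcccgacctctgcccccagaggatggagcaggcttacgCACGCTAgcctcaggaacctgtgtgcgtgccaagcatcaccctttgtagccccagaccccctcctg
Cyp7a1: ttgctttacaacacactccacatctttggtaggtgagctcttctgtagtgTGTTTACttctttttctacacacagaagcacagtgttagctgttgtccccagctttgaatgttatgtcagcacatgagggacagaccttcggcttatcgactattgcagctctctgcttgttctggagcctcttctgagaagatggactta

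The Cyp2c windows below carry the letters most often found in that subfamily, those of C/EBP, in Cyp2c37 (chr19:39992303-39992423, +, fasting liver), Cyp2c54 (chr19:40073828-40073895, −, fed liver) and Cyp2c67 (chr19:39649052-39649157, −, fed liver). Cyp2c29 (chr19:39285776-39285976, +, fasting liver) is shown for a peak at −1198 bp with 1 HNF1 and 1 FOXA match. The Cyp2c37 and Cyp2c54 windows shared an unbroken run of 22 bases, and the other pairs of these windows shared runs of 7 to 9 bases.
Cyp2c37: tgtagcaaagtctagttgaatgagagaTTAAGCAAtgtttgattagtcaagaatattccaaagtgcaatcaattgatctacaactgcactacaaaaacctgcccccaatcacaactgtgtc
Cyp2c54: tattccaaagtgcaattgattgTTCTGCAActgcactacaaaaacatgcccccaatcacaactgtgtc
Cyp2c67: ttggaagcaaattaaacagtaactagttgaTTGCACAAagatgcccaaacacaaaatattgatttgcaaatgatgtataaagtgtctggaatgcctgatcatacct
Cyp2c29: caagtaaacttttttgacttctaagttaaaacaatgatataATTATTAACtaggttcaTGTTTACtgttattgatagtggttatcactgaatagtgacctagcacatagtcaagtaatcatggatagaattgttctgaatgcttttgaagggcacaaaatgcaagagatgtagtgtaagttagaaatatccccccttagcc

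Cyp4a32, a fatty acid ω-hydroxylase gene (chr4:115600806-115601006, +, fed liver), and Cyp3a11, the main drug-metabolising Cyp3a gene of mouse liver (chr5:145881371-145881571, −, fasting liver), are shown as examples from 2 other subfamilies. The first window held 1 HNF1 match and the second 1 match to the D-box, a motif of the circadian PAR bZIP factors.
Cyp4a32: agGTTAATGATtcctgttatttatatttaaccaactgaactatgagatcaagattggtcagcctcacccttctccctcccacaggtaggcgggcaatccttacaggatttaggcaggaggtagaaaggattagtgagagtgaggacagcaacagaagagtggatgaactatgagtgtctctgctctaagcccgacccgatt
Cyp3a11: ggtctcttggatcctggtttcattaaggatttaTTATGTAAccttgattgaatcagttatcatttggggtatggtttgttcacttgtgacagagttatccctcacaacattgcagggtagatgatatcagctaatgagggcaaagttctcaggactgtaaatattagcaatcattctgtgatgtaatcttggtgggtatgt

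Liver had the most open P450 promoters and heart the fewest. In liver 73 of 100 were open, in kidney 60, in lung 40, in BAT 39, in spleen 37, in WAT 36, in muscle 34 and in heart 27. Over all 21938 genes the open share varied far less, from 67.8% in heart to 73.2% in spleen. Both states gave similar counts of P450 genes, namely (fed, then fasting) 77 and 80 in liver, 60 and 64 in kidney, 42 and 41 in lung, 41 and 41 in BAT, 46 and 40 in WAT, 37 and 35 in muscle, 29 and 33 in heart and 45 and 45 in spleen. After the summit tags of every library were thinned to the background of the shallowest one, liver and kidney still had the highest counts, with 73 and 76 in fed and fasting liver, 59 and 60 in kidney and between 20 and 40 in the other libraries. Thinned promoters were called open at a Poisson p-value under 1e-05 and not by the q-value. The change of threshold alone took fed liver, the shallowest library, from 77 to 73, so thinned and unthinned counts differ by more than depth.

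The number of tissues with an open promoter ranged widely, with 38 P450 genes open in 2 to 7 tissues. In all 8 tissues 24 were open, which is 24.0% of the family against 59.9% of all genes, and in exactly 1 tissue another 24, against 4.85% of all genes. The first set held Cyp51, which demethylates lanosterol in cholesterol synthesis, Cyp20a1, an enzyme of unknown substrate, Cyp39a1 and Cyp27a1 of bile acid synthesis and Cyp2r1, a vitamin D 25-hydroxylase, and its ranks had a median of 92.0 over all libraries. Of the narrow genes 17 were open in liver alone, 4 in kidney alone (Cyp2d12, Cyp2g1, Cyp2j13 and Cyp4a30b), 2 in spleen alone (Cyp11b1 and Cyp21a1) and Cyp2j12 in WAT alone. Another 10 were open in liver and kidney, 6 in liver, kidney and lung, and 4 (Cyp2d9, Cyp4a10, Cyp4a14 and Cyp4a31) in liver, kidney and BAT. Liver and kidney shared 52 open promoters, 21 were open in liver and not in kidney, 8 in kidney and not in liver, and 19 in neither.

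No tissue held 14 of the promoters open in both of its libraries: Cyp2b9, Cyp2b13, Cyp2b23, Cyp2c65, Cyp2c66, Cyp2c69, Cyp2j7, Cyp2j8, Cyp3a16, Cyp3a41a, Cyp3a41b, Cyp3a44, Cyp4a29 and Cyp4x1. Among them Cyp2c66, Cyp3a16, Cyp3a41a and Cyp3a44 had no peak in any list. In these 14 genes a median of 21.3% of the 50-base words within 1000 bp of the start occurred more than once in the genome, against 2.46% in the other 86. The part of repeated sequence in the absent peaks was not tested.

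**Figure D1:**
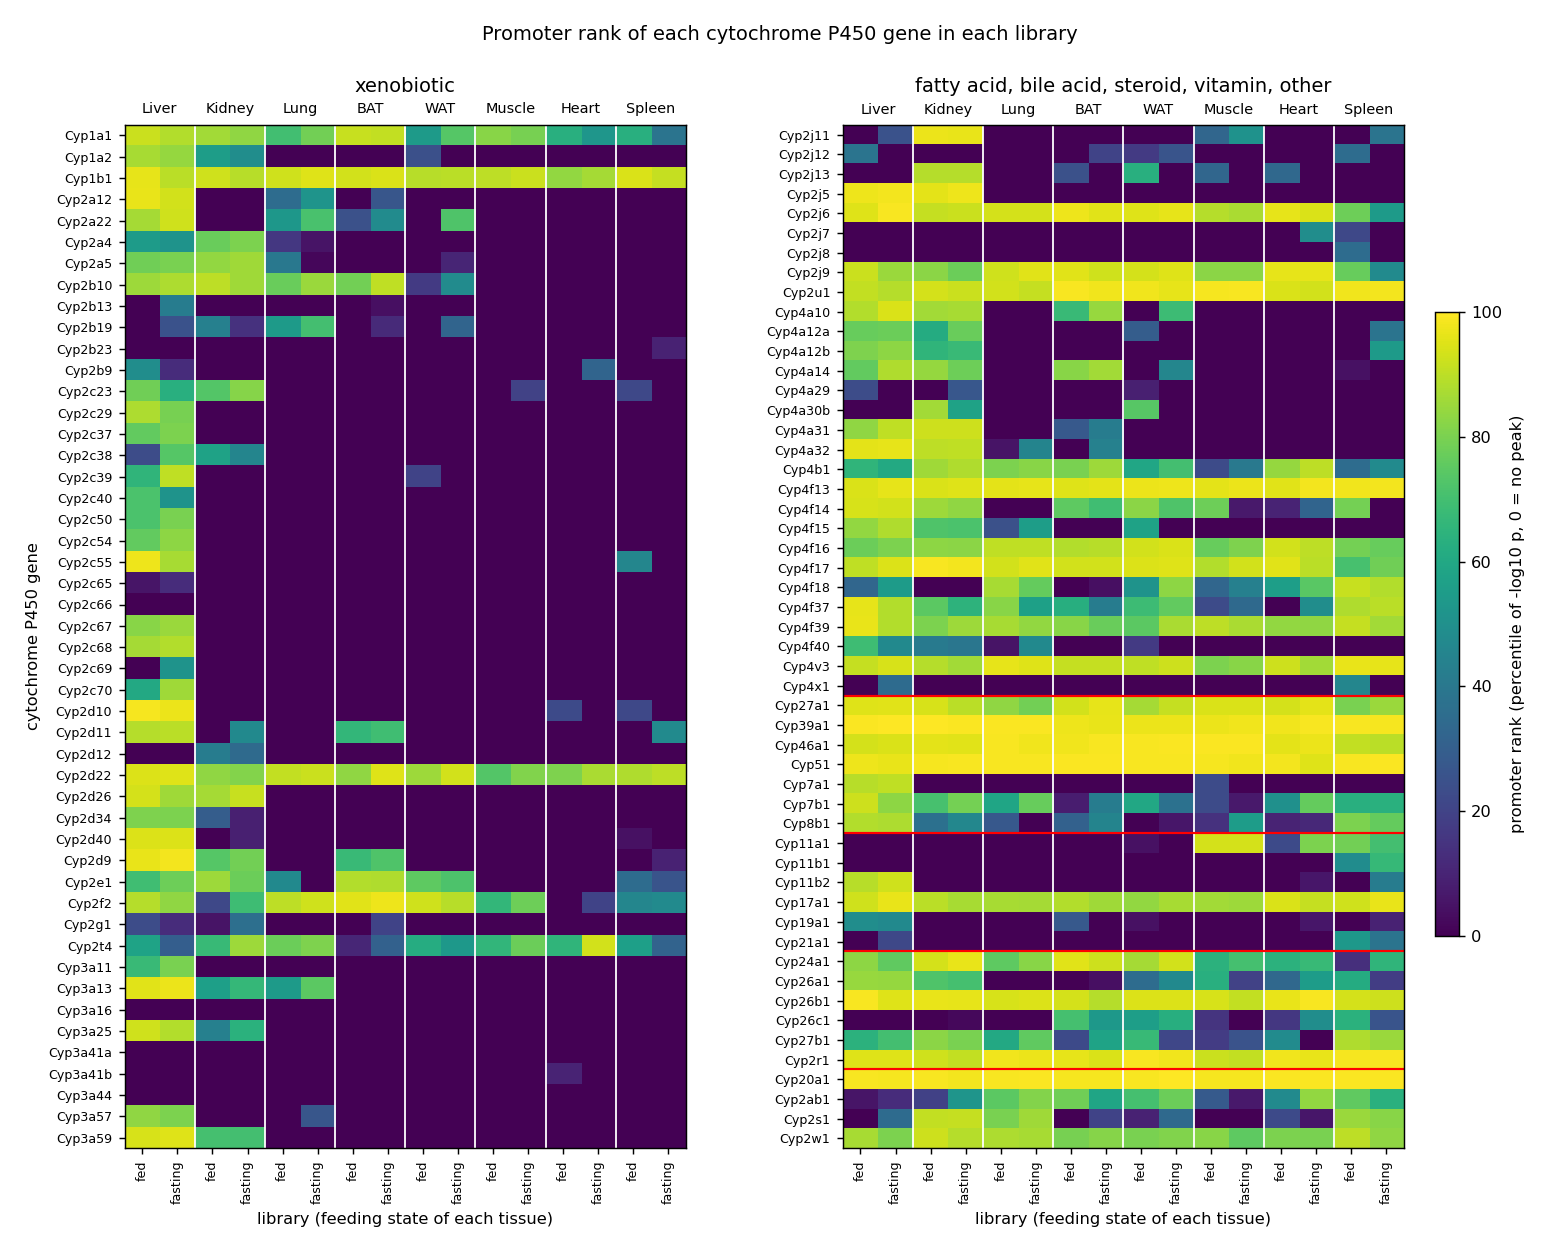
Promoter rank (colour, 0 to 100, with 0 for no listed peak) of the 100 cytochrome P450 genes (rows) in the fed and fasting library of 8 tissues (columns). The left panel holds the 48 xenobiotic genes, and red lines on the right separate, from the top, the fatty acid and eicosanoid, bile acid and sterol, steroid hormone, vitamin D and retinoid, and other genes; the 2 liver columns are filled for most Cyp2c, Cyp2d and Cyp3a rows that are dark elsewhere.

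To ask which promoters ranked higher in a tissue than elsewhere, limma was fitted to the ranks of all 18883 protein-coding genes with a peak in at least 2 libraries, with the feeding state as a term, and each tissue was compared with the mean of the other 7. Of the P450 genes 92 were tested, and the 8 left out (Cyp2b23, Cyp2c66, Cyp2c69, Cyp2j8, Cyp3a16, Cyp3a41a, Cyp3a41b and Cyp3a44) had a peak in at most 1 library. A gene was called at an adjusted p (Benjamini-Hochberg over all genes tested) under 0.05. The fed and fasting libraries stand in for replicates here, so the p-values measure the spread between pooled libraries and not between mice. A gene with peaks only in the 2 libraries of 1 tissue passed the filter through those libraries alone. Its p-value therefore adds no separate evidence beyond the listed peaks. Such genes made up 9 of the P450 calls in liver, 1 in kidney and 1 in spleen.

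Liver called 53 of the 92 tested P450 genes higher (57.6%), against 14.7% of all genes tested. Kidney called 29 (31.5%), against 12.4%. BAT called 11 (12%, against 7.35%) and lung 7 (7.61%, against 5.69%). The share was below that of all genes in spleen with 12 (13%, against 16.8%), WAT with 4 (4.35%, against 6.74%), muscle with 3 (3.26%, against 11.1%) and heart with 2 (2.17%, against 7.79%). The median difference of the tested P450 genes was 32.7 points in liver, 0.8 in kidney and between −11.4 and −6.8 in the other tissues, while that of all genes lay between −0.6 and 0.7. Each contrast subtracts the mean of the other 7 tissues, so a gene listed in liver alone has a negative difference in every other tissue (Cyp2c29, −11.9). The medians of the tissues are therefore not independent of one another. In a count that needs no model, both liver libraries ranked above the other 14 libraries for 36 P450 genes (6.37% of all genes tested did so), both kidney libraries for 8 (6.10%) and both lung libraries for 1 (2.81%), so that liver alone of these 3 stood well above the share of all genes.

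**Figure D2:**
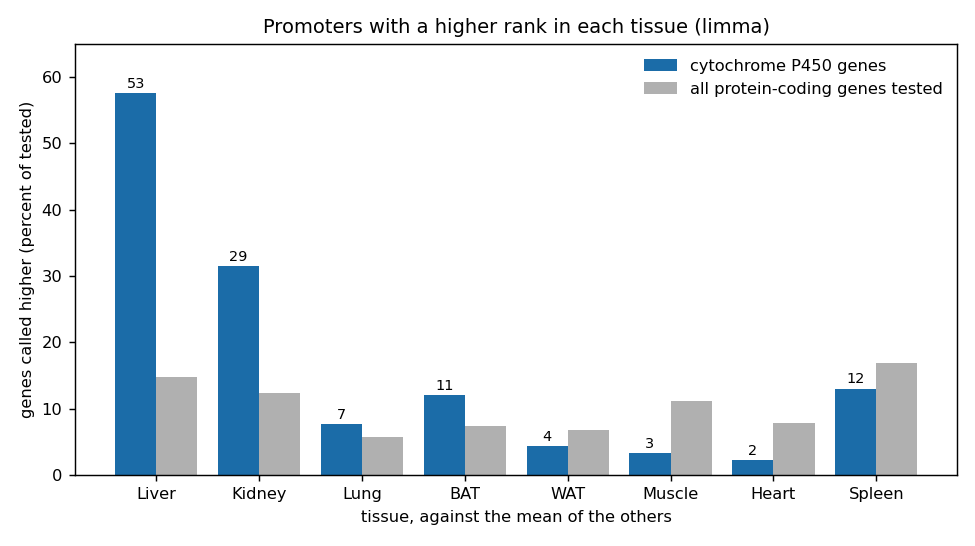
Percent of tested genes with a higher promoter rank in a tissue than in the mean of the other tissues (limma, adjusted p under 0.05), for the 92 cytochrome P450 genes (blue, with the number of genes above the bar) and for all 18883 genes (grey). The blue bar stands at 57.6% in liver and 31.5% in kidney against grey bars of 14.7% and 12.4%, and it lies below the grey bar in WAT, muscle, heart and spleen.

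Leaving out any 1 library gave between 44 and 54 genes called higher in liver. In the tissues with few genes called higher, single libraries decided the count. Without the fed or the fasting kidney library 16 and 18 P450 genes were called in kidney. Without the fed lung library 1 gene was called in lung, and without the fasting lung library 0 (in the limma fit of all libraries 45 of the 92 had an unadjusted p under 0.05 in lung, in either direction). Without the fed or fasting BAT library the BAT count was 3 and 2. WAT called 0 genes without its fed and 1 without its fasting library, and 7 without the fed liver or the fed spleen library. Heart called 0 without its fasting library, 1 without the fed or the fasting lung library and 4 without the fasting liver or the fed spleen library. Lung called 11 without the fasting liver library.

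Among the genes of foreign compound metabolism, 33 of 41 tested ranked higher in liver (against 14.7% of all genes tested) and 13 in kidney (12.4%). The largest liver difference of the family was that of Cyp2d10, a member of the subfamily whose human counterpart metabolises many drugs. Fed liver gave a rank of 98.6 and fasting liver 97, against 22.4 in fed heart, 21.5 in fed spleen and 0 in the other 12 libraries. Both liver values stood far above the rest, a difference of 94.6 points (SE 6.9, limma adjusted p = 3.15e-06). Cyp2d40 ranked 94.9 in both liver libraries and at most 8.6 elsewhere (difference 94.0, SE 5.5, adjusted p = 1.13e-06, limma). Their subfamily lies within 424 kb on chromosome 15, and 7 of its 8 genes were called higher in liver and 3 (Cyp2d9, Cyp2d12 and Cyp2d26) in kidney. Cyp2d12 was the exception in liver, with no peak there and ranks of 42.0 and 34.7 in fed and fasting kidney, and Cyp2d22 was open in all tissues.

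The Cyp2c genes, epoxygenases and drug oxidases on chromosome 19 (39007019 to 44029208), were open mainly in liver. In liver 12 of 15 were open, in kidney 2 (Cyp2c23 and Cyp2c38), and 0 in each of the other 6 tissues. All 12 ranked higher in liver in the limma fit, of 13 tested. Both liver libraries stood above the other 14 for 11 of the 13 tested genes, but not for Cyp2c23 and Cyp2c38. Cyp2c55 ranked 97.4 and 87.0 in fed and fasting liver and 45.9 in fed spleen, with no peak in the other 13 libraries (difference 88.9, SE 8.7, adjusted p = 2.44e-05, limma). Cyp2c68 ranked 86.6 and 88.4 in liver and 0 in the other 14 (difference 87.5, SE 5.3, adjusted p = 1.31e-06, limma). Peaks in the liver pair and nowhere else were found for 9 of the 53 P450 genes called in liver (17.0%), namely Cyp2c29, Cyp2c37, Cyp2c40, Cyp2c50, Cyp2c54, Cyp2c67, Cyp2c68, Cyp2c70 and Cyp3a11, against 92 of the 2772 genes called in liver in all (3.32%). These 9 genes passed the filter of the fit through the liver pair alone. Cyp2c23, an arachidonic acid epoxygenase of kidney, ranked 73.3 and 81.8 in fed and fasting kidney and 78.4 and 63.0 in liver.

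Cyp3a genes oxidise steroids, bile acids and drugs. The 5 that had peaks in liver were all called higher there, while Cyp3a16, Cyp3a41a, Cyp3a41b and Cyp3a44 had no liver peak. Cyp3a11 ranked 67.9 (fed) and 79.9 (fasting) in liver, with no peak in the other 14 libraries (difference 73.9, SE 5.5, adjusted p = 3.76e-06, limma). It passed the filter of the fit through the liver pair alone, so its p-value adds no separate evidence. The Cyp3a11 summit lay at −1399 bp (fed) and −1507 bp (fasting) from the start. Cyp3a59 ranked 94.1 and 95 in liver and 70.6 and 70.3 in kidney, with no peak elsewhere. Cyp3a25 ranked 92.8 and 88.3 in liver and 43.4 and 63.9 in kidney. Cyp3a13, the Cyp3a gene that is also known from other organs, ranked 95.4 and 97 in liver, 56.5 and 66.6 in kidney and 54.5 and 74.8 in lung, and 0 in the other 10 libraries.

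The Cyp2a and Cyp2b genes lie near each other on chromosome 7. All 4 Cyp2a genes were called higher in liver and were open in both lung libraries, but only Cyp2a4 and Cyp2a5, steroid and coumarin hydroxylases, were open in kidney. Cyp2a5 ranked 83.7 and 85.9 in fed and fasting kidney and 78.4 and 79.8 in liver, and Cyp2a4 77.0 and 80.1 in kidney and 54.8 and 51.5 in liver. In each of these 2 genes 51.9% of the 50-base words around the start recur in the genome. Where they recur was not tested, so it is not known whether reads were split between the 2 genes. Cyp2a12 ranked 96.5 and 93.0 in liver, 35.2 and 51.7 in lung and 26.9 in fasting BAT (liver difference 86.6, SE 7.1, adjusted p = 7.09e-06, limma). Cyp2b10, the standard target of the constitutive androstane receptor, ranked between 77.3 and 90.5 in all libraries of liver, kidney, lung and BAT, 16.9 and 48.1 in fed and fasting WAT, and 0 in muscle, heart and spleen. It was called higher in each of the first 4 tissues. Cyp2b9 ranked 49.0 and 12.6 in liver and Cyp2b13 42.1 in fasting liver and 4.2 in fasting BAT, and Cyp2b19, a gene known from keratinocytes, had its highest ranks in lung (54.5 and 70.2).

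Cyp1a2, a liver enzyme of caffeine and arylamine oxidation, ranked 86.8 and 84.2 in fed and fasting liver, 55.6 and 48.9 in kidney, 24.4 in fed WAT and 0 in the other 11 libraries (liver difference 76.3, SE 6.5, adjusted p = 9.30e-06, limma). Its strongest summit moved between the fed library, at −2441 bp and nearer to the start of Cyp1a1, and the fasting library, 1 bp inside the gene. Cyp1a1 had a peak in all 16 libraries, with ranks of 92.0 and 88.6 in liver and, in the other 14, from 38.6 to 91.5 with a median of 76.4 (liver difference 18.3, SE 6.3, adjusted p = 0.0364, limma). Cyp1b1, an extrahepatic enzyme of oestrogen metabolism, ranked between 83.8 and 96.3 in all libraries and was called higher in no tissue and lower in heart (difference −6.9, SE 1.8, adjusted p = 0.0267, limma). Cyp2e1, the ethanol-oxidising enzyme, ranked 69.5 and 77.8 in liver, 85.3 and 77.4 in kidney and 88.6 and 88.1 in BAT and was called higher in all 3. The BAT peak lay 1994 bp inside the gene and the liver peak at −232 bp (fasting) and −202 bp (fed), so these ranks come from different peaks. Cyp2f2, a naphthalene-oxidising enzyme of airway club cells, ranked 90.1 and 92.9 in lung, but also 95.4 and 97.5 in BAT, 92.8 and 89.3 in WAT and 88.7 and 83.4 in liver. Of the 5 airway epithelium markers 1 was called higher in lung.

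**Figure D3:**
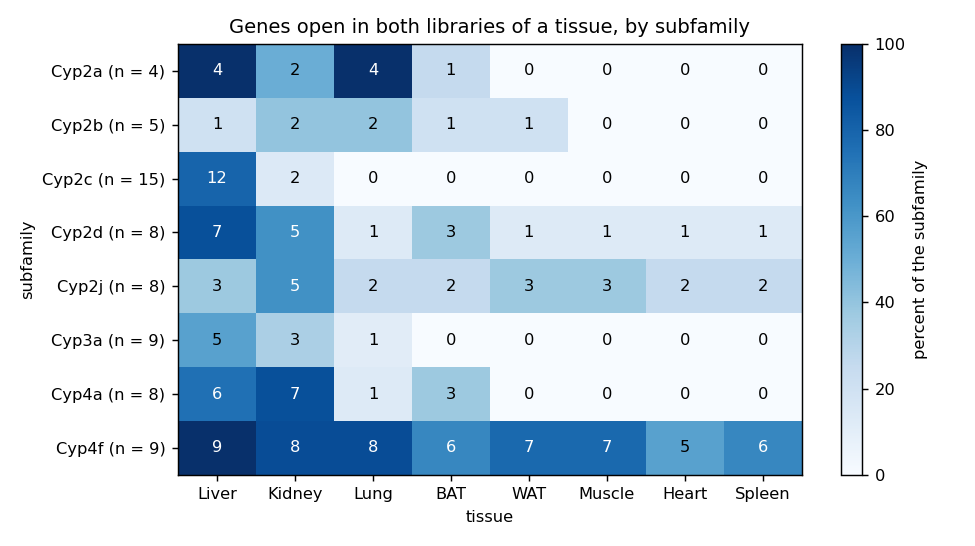
Number of genes open in both libraries of a tissue (digit in each cell) for the 8 cytochrome P450 subfamilies with at least 4 genes, coloured by the percent of the subfamily. Cyp2c shows 12 of 15 in liver, 2 in kidney and 0 elsewhere, Cyp4a shows 6 and 7 of 8 in liver and kidney, and Cyp4f stays between 5 and 9 of 9 in all tissues.

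Of the 28 tested genes of fatty acid and eicosanoid oxidation, 11 ranked higher in liver (against 14.7% of all genes tested) and 13 in kidney (12.4%). Whether this balance differs from that of the drug genes was not tested. Within the Cyp4a cluster, 380 kb of chromosome 4 that encodes peroxisome proliferator-responsive ω-hydroxylases, 6 of 8 promoters were open in liver and 7 in kidney, and the same numbers were called higher. Cyp4a31 ranked 92.5 and 92.4 in fed and fasting kidney, 83.4 and 90.4 in liver and 27.8 and 41.9 in BAT (kidney difference 75.1, SE 6.0, adjusted p = 1.70e-05, limma). Cyp4a10 ranked 88.5 and 94.4 in fed and fasting liver, 86.0 and 86.8 in kidney, 67.9 and 84.7 in BAT and 68.6 in fasting WAT, with no peak in the other 9 libraries. Cyp4a14 ranked 75.8 and 88.2 in liver, 84.3 and 77.8 in kidney, 82.3 and 86.0 in BAT and 45.8 in fasting WAT. Cyp4a12a and Cyp4a12b, known for higher expression in males, ranked between 61.7 and 82.9 in liver and kidney. Of their 50-base words 59.8% and 60.4% recur in the genome. Where these words recur was not tested, so it is not known whether the pair can be read apart. Cyp4a30b had ranks of 86.0 and 57.7 in fed and fasting kidney and none in liver.

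The Cyp2j genes, arachidonic acid epoxygenases in 637 kb of chromosome 4, split by tissue. Cyp2j5 ranked 97.3 and 98.3 in fed and fasting liver, 96.0 and 97.3 in kidney and 0 in the other 12 libraries (liver difference 84.0, SE 5.5, adjusted p = 2.08e-06; kidney difference 82.7, adjusted p = 9.07e-06, limma). Cyp2j11 ranked 97.1 and 96.6 in kidney and at most 50.8 elsewhere, which was the largest kidney difference of the family (86.3, SE 8.5, adjusted p = 6.13e-05, limma). Cyp2j13 ranked 88.8 and 88.9 in kidney, and among the other libraries its highest rank was 63.2 in fed WAT. Cyp2j6 and Cyp2j9 were open in all 8 tissues, and Cyp2j7, Cyp2j8 and Cyp2j12 had ranks of at most 49.2. The Cyp4f genes, which degrade leukotrienes and oxidise long-chain fatty acids, were broad: all 9 were open in liver, 8 in kidney and lung, and 5 to 7 in the other tissues. Cyp4b1, a fatty acid and xenobiotic hydroxylase prominent in lung, ranked 80.2 and 82.1 in lung but was called higher in kidney (85.9 and 88.0), BAT (79.7 and 85.2) and heart (84.2 and 90.0).

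All 7 genes of bile acid and sterol metabolism were open in liver, where 5 ranked higher (against 14.7% of all genes tested) and the other 2, Cyp51 and Cyp46a1, lower. Cyp7a1 ranked 89.1 and 90.5 in fed and fasting liver, 22.8 in fed muscle and 0 in the other 13 libraries (difference 88.2, SE 6.3, adjusted p = 3.09e-06, limma). Cyp8b1, the sterol 12α-hydroxylase, ranked 88.5 and 87.7 in liver with a summit about 60 bp inside the gene (58 bp fed, 61 bp fasting). Its spleen ranks of 80.2 and 76.2 came from a different peak, at −2733 bp (fed) and −2940 bp (fasting), and a window of 1000 bp turned the sign of that spleen difference, to −21.6 points. Cyp7b1 ranked 92.2 and 83.0 in liver and Cyp27a1 95.3 and 95.5, with a highest rank elsewhere of 79.2 and 96.2. Cyp51 and Cyp46a1, the brain cholesterol 24-hydroxylase, ranked at or above 89.7 in all libraries, and both were called lower in liver, by differences of −1.6 (SE 0.5, adjusted p = 0.0214, limma) and −3.0 (SE 0.6, adjusted p = 0.00162, limma). Cyp46a1 was also called lower in spleen (difference −7.2, SE 0.6, adjusted p = 4.19e-06, limma) and higher in lung, BAT, WAT and muscle, by 2.1 to 3.5 points. Its lung call was lost when ranks came from fold enrichment, with one peak per region and on a logit scale.

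The genes of steroid hormone synthesis are mainly expressed in adrenal, gonad and placenta, which were not sampled. Cyp11b1 (steroid 11β-hydroxylase) had peaks in the spleen libraries alone, with ranks of 48.5 and 66.9 (difference 57.7, SE 5.9, adjusted p = 2.77e-05, limma). It passed the filter of the fit through those libraries alone, so its p-value adds no separate evidence. Cyp21a1 (21-hydroxylase) ranked 53.3 and 38.6 in spleen and 21.6 in fasting liver. Cyp11a1, which cleaves the cholesterol side chain, ranked 78.8 and 70.1 in spleen from a peak at its start and 93.6 and 93.6 in muscle from a peak 2794 to 2796 bp inside the gene. Of the 5 adrenal cortex markers 0 were called higher in spleen, and Mc2r, the adrenal ACTH receptor, was at 0 in both spleen libraries and Nr5a1 at 0 and 4.8. Hsd3b1 was at 0 there in both libraries, Star at 32.1 and 18.1 and Akr1b7 at 4.4 and 66.4. Cyp11b2 (aldosterone synthase) ranked 89.1 and 92.7 in liver, from a peak at −1261 bp (fed) and −1276 bp (fasting), and with a window of 1000 bp it had too few peaks to be fitted. Cyp17a1, the 17α-hydroxylase, ranked between 83.9 and 96.6 in all libraries.

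Vitamin D and retinoic acid genes were mostly broad, with 6 of 6 open in WAT and spleen and 5 in liver and kidney. Cyp26a1, which degrades retinoic acid, was the member called in liver, with ranks of 84.7 and 84.0 there, 72.3 and 70.7 in kidney and 0 in 3 libraries (adjusted p = 0.00569, limma). Cyp24a1, the vitamin D 24-hydroxylase of kidney, ranked 93.5 and 96.7 in kidney and 95.6 and 92.5 in BAT (kidney adjusted p = 0.0853, limma), and its kidney peak also lay within reach of a start of Pfdn4. Cyp27b1, the kidney 1α-hydroxylase, ranked 82.5 and 79.7 in kidney and 87.9 and 84.8 in spleen (kidney adjusted p = 0.121). Cyp26c1 ranked 70.4 and 53.4 in BAT and 56.1 and 62.6 in WAT. Among the remaining genes Cyp20a1 ranked between 98.2 and 99.7 everywhere, and Cyp2s1, an epithelial enzyme, 90.7 and 91.3 in kidney, 85.0 and 82.3 in spleen and 79.9 and 85.8 in lung.

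Outside liver and kidney fewer P450 genes were called higher, from 2 in heart to 12 in spleen. Genes were also called lower there, such as Cyp2b10 in muscle, heart and spleen (difference −53.2 in each), and those calls are not counted here. Lung calls were led by Cyp2b19 (difference 53.2, adjusted p = 0.00923), Cyp2s1 (48.8, 0.0108), Cyp3a13 (42.1, 0.00403) and Cyp2b10 (39.6, 0.0101) in limma. Cyp4f18, a leukotriene hydroxylase of leukocytes, ranked 91.7 and 88.4 in spleen and 86.8 and 76.4 in lung and was called in both, with differences of 47.4 and 37.8. In BAT the largest differences were those of Cyp4a14 (57.2), Cyp2d11 (48.4), Cyp2e1 (47.9) and Cyp4a10 (46.0). With a window of 1000 bp Cyp4a14, Cyp2d11, Cyp2e1 and Cyp2f2 were no longer called in BAT, Cyp2d9 had a difference of −18.4, and Cyp26c1 had too few peaks to be fitted. WAT called Cyp26c1 (38.2), Cyp4f16 (9.4), Cyp46a1 (3.3) and Cyp2r1 (3.3), muscle Cyp11a1 (75.3), Cyp2u1 (4.3) and Cyp46a1 (3.5), and heart Cyp4b1 (22.6) and Cyp4f16 (7.2). The Cyp26c1 call in WAT held in 5 of 9 settings and 6 of 16 fits that left out a library. With a window of 1000 bp the muscle difference of Cyp11a1 was 4.9 and no longer called.

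No P450 gene was called between fasting and fed in the fit over all tissues, and neither was any gene (0 of 18883, or 0%, in limma, with 901 genes and 4 P450 genes at an unadjusted p under 0.05). Cyp4f13 had a mean difference of fasting minus fed of 1.1 points (SE 0.4) and a higher fasting rank in all 8 tissues. Cyp2d22 differed by 4.4 points (SE 1.6) and ranked higher in fasting in 7 of 8. Cyp2j13 differed by −19.3 points (SE 7.5), lower in 4 tissues, higher in 1 and equal in 3, and Cyp2u1 by −1.1 points (SE 0.5), lower in 6 of 8. The limma adjusted p (Benjamini-Hochberg) of these 4 genes was 0.830. Across the 92 tested genes 55 had a positive and 37 a negative difference, with a median of 0.448 points, against −0.0767 over all genes tested.

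Within a tissue each state has 1 library, so the differences there carry no test, and genes were counted whose ranks differed by at least 20 points. In liver 11 of the 86 P450 genes with a liver peak ranked that much higher in the fasting library (5.43% of all genes with a liver peak) and 5 that much lower (9.52%). Kidney had 6 higher (1.94%) and 3 lower (1.81%) of 64, lung 5 (2.04%) and 4 (3.72%) of 43, and BAT 9 (4.19%) and 3 (3.85%) of 50. WAT had 7 higher (4.53%) and 8 lower (6.55%) of 52, muscle 1 (2.05%) and 5 (3.82%) of 38, heart 11 (6.01%) and 3 (6.63%) of 42, and spleen 6 (5.93%) and 14 (6.95%) of 55. Among genes open in both states the median absolute difference in liver was 3.60 points for P450 genes and 2.25 for all genes.

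In liver the largest higher fasting ranks were those of Cyp2c69 (0 fed, 51.5 fasting), Cyp2c38 (23.4 and 73.7) and Cyp2b13 (0 and 42.1). Of the 14 Cyp2c genes with a liver peak 10 ranked higher in the fasting library and 4 lower. Their median difference was 5.7 points, against −0.02 over all genes with a liver peak. Upward 4 passed 20 points and downward 0, with Cyp2c40 (71.5 fed, 51.5 fasting) just short of it. The largest differences the other way were those of Cyp2j12 (38.4 and 0), Cyp2b9 (49.0 and 12.6) and Cyp2t4 (58.1 and 29.9). Ranks in this range rest on few tags. The fasting summits held 15 tags in Cyp2c69, 13 in Cyp2b13 and 27 in Cyp2c38. The fed summits held 12 in Cyp2j12 and 13 in Cyp2b9. A fasting liver rank of 12.6 stood at 10 tags in Cyp2c65, so a few tags can move a rank by over 20 points. The fatty acid hydroxylase genes of the Cyp4a cluster ranked higher in the fasting liver library for 6 of 7 with a peak, by a median of 2.1 points. Cyp7a1 differed by little in liver, with ranks of 89.1 and 90.5.

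BAT had 4 Cyp4a genes with a peak, and all 4 ranked higher in fasting, by a median of 15.5 points (−0.13 over all genes with a BAT peak). Its largest differences were those of Cyp4a32 (0 and 43.8), Cyp27b1 (22.3 and 57.9) and Cyp7b1 (7.9 and 41.9). The BAT lists differed in depth, with a local background of 12.77 tags in the fed and 6.76 in the fasting library. The fed list had no q-value above 5.48e-06. In the fasting list 224874 of 298996 rows had a q-value under 0.01. After thinning, with open called at a Poisson p-value under 1e-05 and not by the q-value, Cyp4a32 was open in neither BAT library. Cyp7b1 was open in the fed one alone and Cyp27b1 in both. The part of depth in these BAT differences was not tested. In WAT Cyp2a22 (0 and 72.6), Cyp4a10 (0 and 68.6) and Cyp4a14 (0 and 45.8) were listed in the fasting library alone, and Cyp4a30b (74.0 and 0), Cyp2j13 (63.2 and 0) and Cyp4f15 (57.8 and 0) in the fed one alone. Markers of other organs also differed between the WAT libraries. Of the 5 epididymis markers Adam7 ranked 74.7 in fed and 0 in fasting WAT, Crisp1 44.8 and 0, Lcn5 88.1 and 57.4 and Rnase10 91.8 and 95.8, with Lcn8 at 0 in both, and the kidney marker Lrp2 ranked 73.8 and 32.2. Their part in the WAT differences was not tested.

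Kidney differences were led by Cyp2d11 (0 fed, 47.4 fasting) and Cyp2f2 (21.8 and 69.1) upward and Cyp2b19 (43.4 and 14.3) and Cyp4a30b (86.0 and 57.7) downward. Lung had Cyp4f40 (5.4 and 47.6) and Cyp4a32 (5.4 and 45.3) higher in fasting and Cyp2e1 (47.4 and 0) and Cyp2a5 (39.9 and 1.7) lower. Single genes made the largest gaps in the other tissues: Cyp4f14, a leukotriene ω-hydroxylase, ranked 77.8 in fed and 7.0 in fasting muscle and 79.0 and 0 in spleen, and Cyp11a1 22.4 and 80.3 in heart. In spleen 5 of the 6 Cyp2j genes with a peak ranked lower in the fasting library by over 20 points, among them Cyp2j6 (77.9 and 54.4) and Cyp2j9 (76.8 and 47.7). Over all genes with a spleen peak 6.95% ranked at least 20 points lower.

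**Figure D4:**
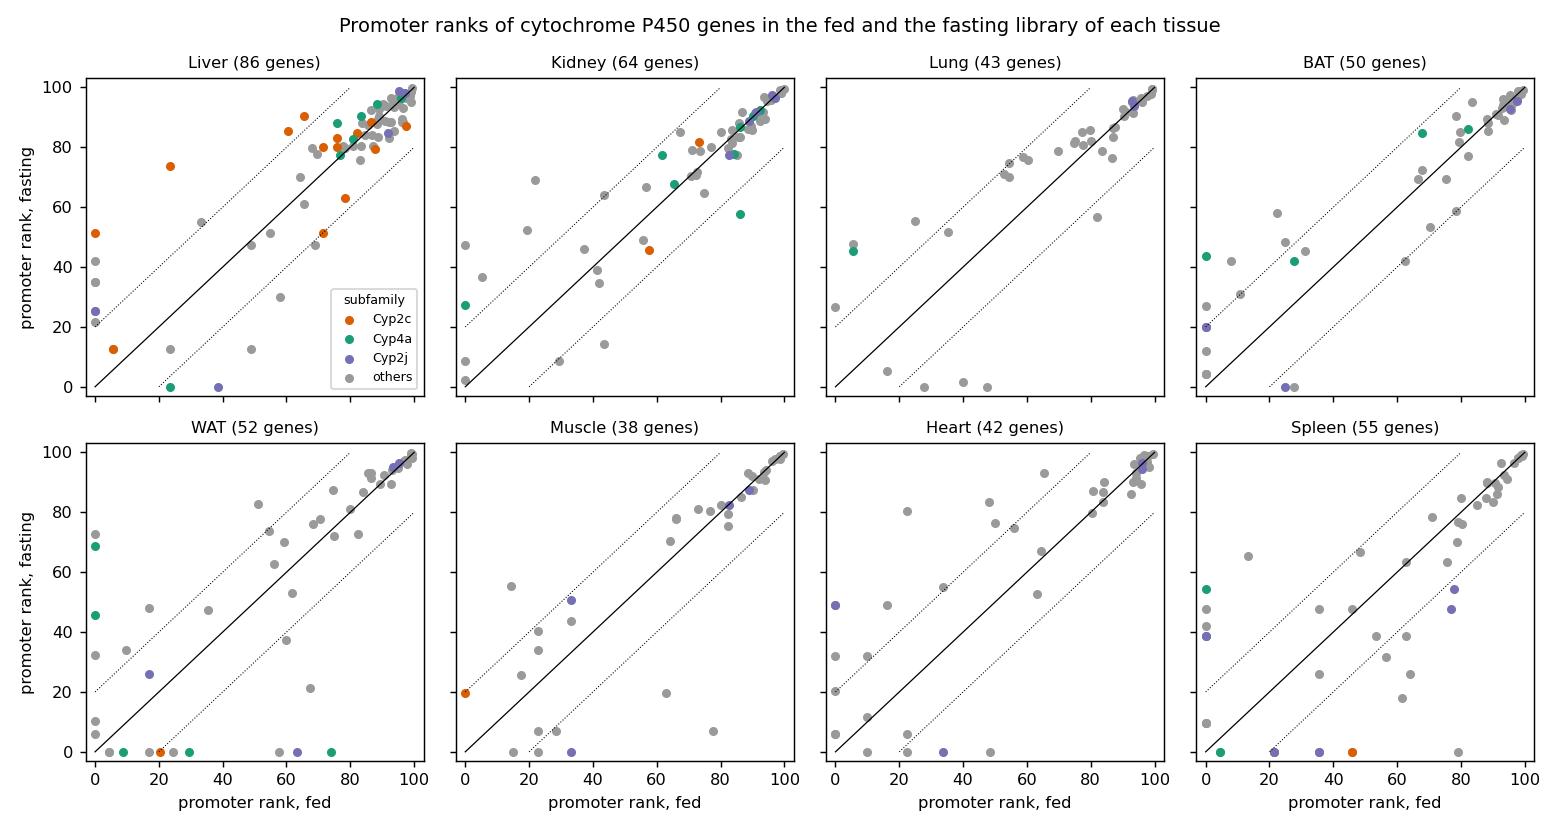
Promoter rank in the fed (x axis) and fasting (y axis) library of each tissue, 1 point for each cytochrome P450 gene with a peak in that tissue (86 in liver to 38 in muscle), with Cyp2c, Cyp4a and Cyp2j genes coloured. Points between the dotted lines differ by under 20 points; the 10 of 14 Cyp2c genes above the diagonal in liver and the Cyp4a points on the left edge of the WAT panel are described in the text.

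The peaks themselves lay mostly at the start of the gene. Of the 96 P450 genes with any peak, the strongest over all libraries had its summit within 250 bp of a start in 55 and within 1000 bp in 71, with a median distance of 148 bp, and 61 lay upstream. By annotation 47 of these summits were intergenic, 24 in an intron, 17 in a UTR, 6 in a coding exon and 2 in a noncoding exon. In 3 genes the peak was also within reach of a start of another gene.

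**Figure D5:**
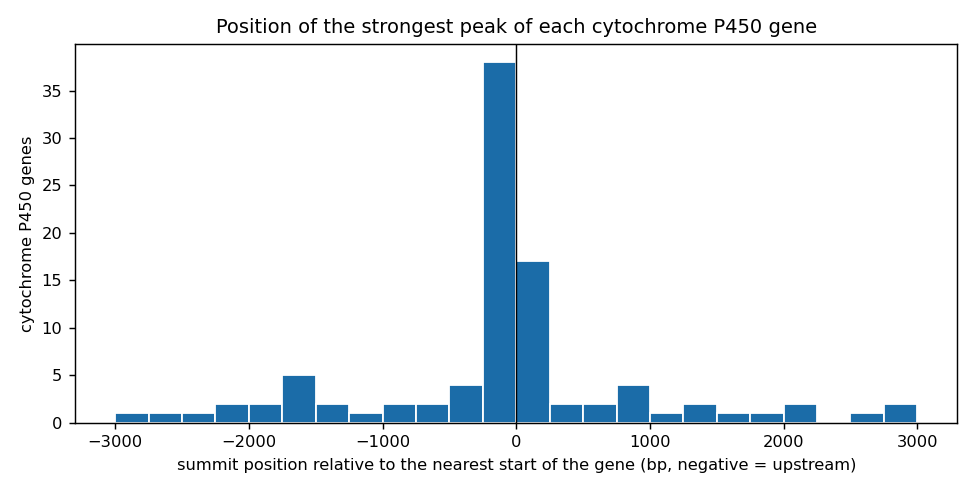
Distance of the summit of the strongest peak from the nearest start of the gene, in bins of 250 bp and with negative values upstream, for the 96 cytochrome P450 genes with a peak. The bins next to the start hold most genes, with 55 of 96 summits within 250 bp.

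P450 starts were poor in CpG dinucleotides. In the 300 bases from 250 before to 50 after the annotated start, the family had a median of 3.0 CpG, against 11 over all genes. The 24 genes open in every tissue had a median of 9.5, with the highest value in Cyp46a1 (34), and the same class over all genes had 19.0. In the 24 genes open in 1 tissue the median was 2.5, against 3.0 over all genes of that class, and no gene of it exceeded 6. The GC content of the same stretch had a median of 57.6% in the P450 genes open everywhere and 43.9% in those open in 1 tissue.

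Among the motifs searched within 100 bp of the strongest liver summit of each gene (in either liver library), that of C/EBP was the most common in the family. It was found in 17 of 86 P450 promoters with a liver peak (19.8%), against 7.49% of 18082 promoters in all, and in 5 of 14 Cyp2c promoters (35.7%). SF1/LRH1 letters were found in 5 of 86 (5.81%, against 1.26% of all), FOXA in 4 (4.65%, against 2.48%), the xenobiotic response element in 3 (3.49%, against 5.85%) and HNF1 in 2 (2.33%, against 0.724%). HNF4, the sterol response element and the D-box had 1 match each (1.16%, against 0.592%, 1.08% and 0.326%). In kidney C/EBP letters were found in 5 of 64 P450 promoters (7.81%, against 5.19%), and HNF4 and HNF1 letters in 3 each (4.69%, against 0.643% and 0.861%). In lung C/EBP letters were found in 7 of 43 (16.3%, against 5.70%).

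Repeated sequence touched 35 of the 100 genes, in which over 10% of the 50-base words around the start recur in the genome, with the highest shares in Cyp2c29 (85.0%), Cyp3a41b (81.7%) and Cyp3a41a (80.9%). Among tested genes with few repeats 32 of 63 ranked higher in liver and 20 of 63 in kidney, and among those with many 21 of 29 and 9 of 29.

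Genes that serve or control P450 enzymes were read in the same fit. The 7 partners, with Por (P450 reductase), cytochrome b5 and the mitochondrial ferredoxin genes, were open in every library, with mean ranks between 96.8 and 98.0 in all tissues. Of the 25 regulators 11 ranked higher in liver (against 14.7% of all genes tested) and 7 in kidney (12.4%). In heart 5 did so (7.79%), in spleen 3 (16.8%), in lung, BAT and muscle 1 each (5.69%, 7.35% and 11.1%) and in WAT 0 (6.74%). Regulators called lower in liver were Dbp (difference −14.3), Tef (−2.9), Arnt (−2.8) and Srebf2 (−2.7). Hnf4a, a hepatocyte nuclear receptor, ranked 99.4 and 99.2 in fed and fasting liver and 87.9 and 95.8 in kidney (liver difference 75.6). The xenobiotic receptors Nr1i3 (CAR) and Nr1i2 (PXR) ranked 81.8 and 93.6, and 92.7 and 94.2, in liver (differences of 68.3 and 60.3), and Nr1h4, the bile acid receptor FXR, 95.1 and 96.7 (difference 67.2). Ahr, Ppara and Rxra ranked at or above 86.2 in all libraries.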

How the data were processed

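Accessible chromatin was measured by ATAC-Seq in 16 pooled libraries, 1 for each of 8 tissues and 2 feeding states. Per the submitters' processing notes the reads were aligned with Bowtie2 to GRCm38 and peaks were called with MACS2 (versions are not given in the sources used here). The lists the authors deposited hold each peak with its fold enrichment, a linear ratio over local background, and its −log10 p-value and −log10 q-value. There were no replicate libraries here, so fed and fasting are compared within a tissue by 1 library each.

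From these lists the promoter rank of each protein-coding gene was computed (window 3000 bp, rank 0 without a peak). The ranks of 18883 genes with a peak in at least 2 libraries were fitted with limma 3.58.1 (R 4.3.3, trend and robust) with tissue and state as terms, and p-values were adjusted by the Benjamini-Hochberg method. The scripts were tested on simulated data. Motifs were searched on both strands within 100 bp of the strongest summit, and repeated words in 1000 bp on either side of the start.

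The genes and lists were chosen with earlier results of these data known. Genes were named by size of the difference among those called (up to 12 in liver and 8 elsewhere), by the largest rank differences of at least 20 points between states (up to 3 each way per tissue), and as textbook examples. Alternatives changed the window, the ranking measure, the assignment of peaks to genes, the starts used, the scale, the filter, the thresholds and the libraries used. One alternative, without genes rich in repeated words, was chosen after seeing the data.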

Additional observations from a re-analysis of the deposited data

How the results depend on the processing

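Of 219 counts recomputed under an alternative, 195 stayed within 1.5 times the reported count and 24 did not, and of 650 values of single genes 611 kept their direction and side of the threshold, 22 lost the call, 11 moved and 6 reversed. The cause was not tested for any of these. In genes with few repeated words the liver count was 32 (of fewer genes tested) and that of heart 0. A window of 1000 bp gave 5 higher genes in BAT, 2 separated genes in lung and 5 genes with a fed to fasting difference in lung. Ranking by fold enrichment gave 1 higher gene in WAT, 5 in muscle, 1 in heart and 7 in spleen. Heart had 4 with one peak per region and 5 on a logit scale. With protein-coding starts only, 0 genes were separated in lung, and with q under 1e-06 spleen had 24 open promoters. Differences of at least 40 points between fed and fasting were found for 3 genes in liver, 2 in kidney, 2 in lung, 1 in BAT, 7 in WAT, 3 in muscle, 4 in heart and 8 in spleen, and of at least 10 points for 16 in lung, 20 in BAT and 15 in muscle. With the 1000 bp window the differences of Cyp2a12 in lung (−13.5), Cyp2d11 (−8.4), Cyp2e1 (−8.1) and Cyp2d9 (−18.4) in BAT and Cyp8b1 in spleen (−21.6) reversed, as did Cyp8b1 with one peak per region (−27.4).

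Leaving out 1 library at a time gave 44 to 54 higher genes in liver, 16 to 31 in kidney, 0 to 11 in lung, 2 to 15 in BAT, 0 to 7 in WAT, 2 to 4 in muscle, 0 to 4 in heart, 9 to 14 in spleen and 0 to 0 between fasting and fed. For 25 of the 52 single-gene calls named, leaving out 1 library of the same tissue ended the call, none of them among the 12 named in liver or the 8 in kidney. The labels give no shared replicate numbers, and the fit itself compares fasting with fed within tissues through its tissue term. Depth limits weak peaks, as each list holds a capped number of rows.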
